A study of Mus musculus with 6 samples.

Results

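RNA from E8.5 mouse embryos was examined for 9 genes of the visceral endoderm, 5 transcription factors (*Hnf4a*, *Foxa1*, *Gata6*, *Sox17* and *Sox7*) and 4 genes of endocytic uptake (*Cubn*, *Amn*, *Lrp2* and *Dab2*). They were taken by symbol from a table of 20280 genes, and all 9 were found. The study compared 3 libraries of wildtype (*Tip55*+/+) embryos with 3 of *Tip55* knockout (*Tip55*Δ/Δ) embryos, all of the FVB/N strain at E8.5. *Tip55* is a splice isoform of *Kat5*, the gene of the TIP60 acetyltransferase, and its allele removes the introns that encode the end particular to TIP55. The study reports that the other isoforms keep their coding sequence and their expression. The labels give the tissue as embryo. They do not say whether a library was 1 embryo or a pool, nor whether the yolk sac, the main site of visceral endoderm at this stage, was kept.

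The visceral endoderm is the epithelium that wraps the early embryo and later lines the yolk sac. It takes up maternal proteins and lipids by endocytosis and secretes carrier proteins, much as the liver does after it forms. Cubilin, the product of *Cubn*, has no membrane span of its own and reaches the cell surface only with amnionless, the product of *Amn*, while megalin, the product of *Lrp2*, is a large receptor that takes up ligands beside them and DAB2 links receptors to clathrin. HNF4A drives the secretory genes of this tissue, GATA6 and the SOX17 and SOX7 factors act early in extraembryonic endoderm, and FOXA1 opens chromatin at endodermal genes. Most of these genes are not limited to the visceral endoderm. *Foxa1*, *Gata6* and *Sox17* are also used in gut endoderm, *Sox17* and *Sox7* in endothelium, *Gata6* in heart, and *Lrp2* in the neural epithelium.

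The deposited table compared the genotypes gene by gene and gave nothing for single libraries. The values below are mean normalized counts of each genotype over its 3 libraries, recovered from ratios, so the value in each sample cannot be shown. The spread between replicates could therefore not be measured, and nothing was tested across embryos. Each interval is a 95% interval of counting error, from counts added up over the 3 libraries of each genotype, and it does not cover differences between embryos. The recovered means summed to 49138051 normalized counts per library in wildtype and 47211544 in knockout embryos. *Kat5* itself had a mean of 2218 in wildtype embryos, against 1615 in knockout embryos (ratio 0.728, interval 0.702 to 0.756). This is a sum over all isoforms that gives no level of *Tip55* or of any other single isoform. The part of each isoform in the lower sum was not tested.

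Stretches of promoter are shown for 3 of the genes, since *Amn* and *Cubn* encode partners of 1 receptor and *Hnf4a* was the factor with the lowest ratio. They come from RefSeq starts on GRCm38.p6, the same assembly as the mm10 build of the files. RefSeq windows were matched for 6 of the 9 genes, and *Gata6*, *Sox17* and *Sox7* are named only. All 3 are written in the direction of the gene, and no base of them lies in an annotated exon. The *Amn* stretch lies at chr12:111270846-111271094 on the plus strand, the *Cubn* stretch at chr2:13491877-13492126 on the minus strand, and the *Hnf4a* stretch at chr2:163546943-163547154 on the plus strand before the downstream of its 2 starts. Capitals would mark matches to the motifs named after them, and there are none in these 3.
Amn: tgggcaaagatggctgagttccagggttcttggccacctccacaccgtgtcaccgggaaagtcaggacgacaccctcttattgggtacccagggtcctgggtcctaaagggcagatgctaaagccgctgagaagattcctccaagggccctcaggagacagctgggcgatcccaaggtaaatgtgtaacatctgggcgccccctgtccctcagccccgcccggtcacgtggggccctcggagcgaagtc
Cubn: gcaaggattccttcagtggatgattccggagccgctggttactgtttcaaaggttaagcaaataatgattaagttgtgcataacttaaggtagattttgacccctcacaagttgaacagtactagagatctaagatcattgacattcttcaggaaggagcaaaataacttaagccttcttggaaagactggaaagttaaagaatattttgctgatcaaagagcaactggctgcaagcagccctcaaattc
Hnf4a: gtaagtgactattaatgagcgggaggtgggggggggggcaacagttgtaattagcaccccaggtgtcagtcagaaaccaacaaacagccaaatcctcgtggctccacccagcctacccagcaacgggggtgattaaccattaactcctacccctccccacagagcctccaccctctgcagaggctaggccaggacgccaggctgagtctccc

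Searched on both strands were 4 motifs, none of which contains another. The HNF4 core was AAGTCCA. The FOXA core was TGTTTAC. The core of the GATA family of factors was written as AGATAA. The SOX core was CATTGT. The windows of *Amn*, *Cubn* and *Lrp2* and that of the downstream start of *Hnf4a* held none of the 4 motifs in these exact letters. Variant forms of each core were not searched. The window of the upstream start of *Hnf4a* held the GATA core from 52 to 47 bases before the start, and that of *Foxa1* the FOXA core from 141 to 135 bases before it, on the other strand. The downstream of the 2 windows of *Dab2* held the HNF4 core from 10 to 4 bases before the start. That match lies in annotated exon, as do all of the 150 bases before this start. The GATA match of *Hnf4a* reaches into the 49 exonic bases before its upstream start. The HNF4, FOXA, GATA and SOX motifs were in 3.36%, 3.17%, 9.99% and 10.7% of 32851 promoter windows of 250 bases. In base composition the full windows of *Amn* and *Cubn* differed, with 61.2% GC and 11 CpG sites in *Amn* against 39.6% and 2 in *Cubn*. A match is a string of letters and no measure of binding.

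Of the 9 genes, 8 had a lower mean in knockout embryos and *Lrp2* a higher one. Only *Amn* and *Hnf4a* were at least 1.5-fold lower and no gene was 1.5-fold higher, where among 15924 genes that reached a mean of 10 normalized counts in either genotype 5.75% were lower and 7.55% higher by that fold. All 9 genes passed this minimum, in both genotypes. Since all 9 had a wildtype mean over 500, the share was also taken among 9680 genes with a mean of at least 500, where 2.86% were 1.5-fold lower. The balance of the 2 directions turned with the minimum, and among genes that reached a mean of 100 there were 4.11% lower and 2.90% higher. The median ratio of the 9 genes was 0.831, a median log2 ratio of −0.27, against a median log2 ratio of −0.0025 over the 15924 genes. The 5 transcription factors and the 4 uptake genes had nearly the same median, 0.831 and 0.824. The counting interval lay below 1 for 7 of the 9 genes, above 1 for *Lrp2* and around 1 for *Gata6*. It lay below 1 for 37.5% of all genes and above 1 for 35.1%, and below 1 for 47.4% of genes with a mean of at least 500, so an interval that leaves out 1 was common in this table.

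**Figure D1:**
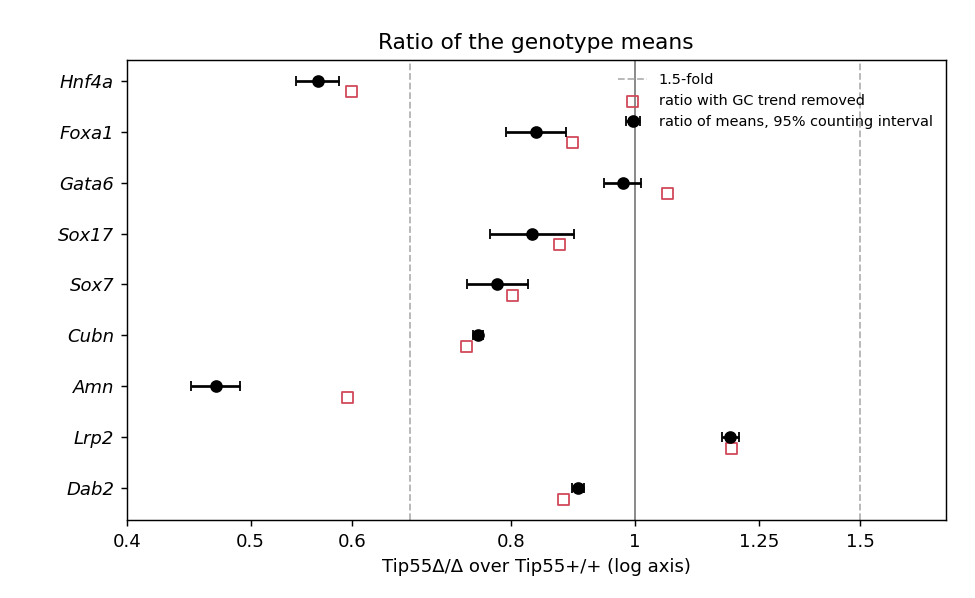
Ratio of the knockout mean over the wildtype mean for the 9 genes on a log axis. Black points with bars give the ratio and its 95% interval of counting error, open squares the ratio with the trend on GC content removed, and dashed lines mark 1.5-fold. *Amn* at 0.470 and *Hnf4a* at 0.564 lie past the lower line, and *Lrp2* at 1.19 is the gene whose whole interval lies above 1.

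Among the transcription factors, *Hnf4a* (ENSMUSG00000017950.16, chromosome 2 of GRCm38 from 163506808 to 163572910, plus strand) stood lowest. This nuclear receptor had a mean of 2346 normalized counts in wildtype and 1324 in knockout embryos. The ratio was 0.564 (interval 0.543 to 0.587), or 1.77-fold lower, and 2.98% of the 15924 genes had a lower ratio. With the GC trend described below removed the ratio was 0.599, still past 1.5-fold. Its count sums both starts, so the part of the transcripts made from either start is not known.

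The remaining 4 factors lay closer to 1. *Sox7*, an SRY-box factor of extraembryonic endoderm and endothelium (ENSMUSG00000063060.6, chromosome 14 from 63943673 to 63950732, plus strand), had 962.8 normalized counts in wildtype and 751.1 in knockout embryos, a ratio of 0.780 (interval 0.738 to 0.825). *Sox17*, its relative (ENSMUSG00000025902.13, chromosome 1 from 4490931 to 4497354, minus strand), had 504.6 and 419.2, a ratio of 0.831 (interval 0.770 to 0.896). The change in the *Sox17* to *Sox7* ratio between genotypes was 1.07-fold (interval 0.970 to 1.17), so the pair could not be told apart by counting error. *Foxa1* (ENSMUSG00000035451.7, chromosome 12 from 57540628 to 57546916, minus strand) had 963.6 and 805.8, a ratio of 0.836 (interval 0.792 to 0.883). *Gata6*, a zinc finger factor (ENSMUSG00000005836.10, chromosome 18 from 11052064 to 11085635, plus strand), had 2234 and 2183, a ratio of 0.977 (interval 0.945 to 1.01). Its ratio turned to 1.06 with the GC trend removed and to 1.02 when each mean was taken as a share of its genotype's total, so it has no fixed direction. In wildtype embryos *Gata6* and *Hnf4a* had 590.3 and 537.8 normalized counts per kb of transcript, and the ratio of *Gata6* to *Hnf4a* was 1.73 times as high in knockout embryos (interval 1.65 to 1.82).

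The ratios of the uptake genes ran from 0.470 to 1.19, a wider range than the 0.564 to 0.977 of the transcription factors. *Amn* (ENSMUSG00000021278.7, chromosome 12 from 111271095 to 111276426, plus strand), the membrane anchor of cubilin, had 2056 normalized counts in wildtype and 965.2 in knockout embryos. At 0.470 (interval 0.449 to 0.491) it had the lowest ratio of the 9 genes, 2.13-fold lower, and 1.64% of all genes had a lower one. Its partner *Cubn* (ENSMUSG00000026726.10, chromosome 2 from 13276338 to 13491813, minus strand) had 38093 and 28683, a ratio of 0.753 (interval 0.746 to 0.760). This made the *Cubn* to *Amn* ratio 1.60 times as high in knockout as in wildtype embryos (interval 1.53 to 1.68), a measure taken within each genotype and so free of the scaling between them. With the GC trend removed it was 1.24 times as high, since the *Amn* transcript has 62.9% GC and the *Cubn* transcript 46.4%.

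*Lrp2* (ENSMUSG00000027070.14, chromosome 2 from 69424340 to 69586065, minus strand) went the other way, with 10130 normalized counts in wildtype and 12021 in knockout embryos. The ratio was 1.19 (interval 1.17 to 1.21), and it stayed at 1.19 with the GC trend removed. Set against its co-receptor, the *Lrp2* to *Cubn* ratio was 1.58 times as high in knockout embryos (interval 1.55 to 1.60), and against *Amn* it was 2.53 times as high (interval 2.41 to 2.65). *Dab2*, the adaptor (ENSMUSG00000022150.16, chromosome 15 from 6299788 to 6440712, plus strand), had 22992 and 20728, a ratio of 0.902 (interval 0.892 to 0.911). The *Dab2* to *Cubn* ratio was 1.20 times as high in knockout embryos (interval 1.18 to 1.21). In bulk RNA, fewer cells of a type and less RNA per cell cannot be told apart, and this holds for every ratio given here.

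**Figure D2:**
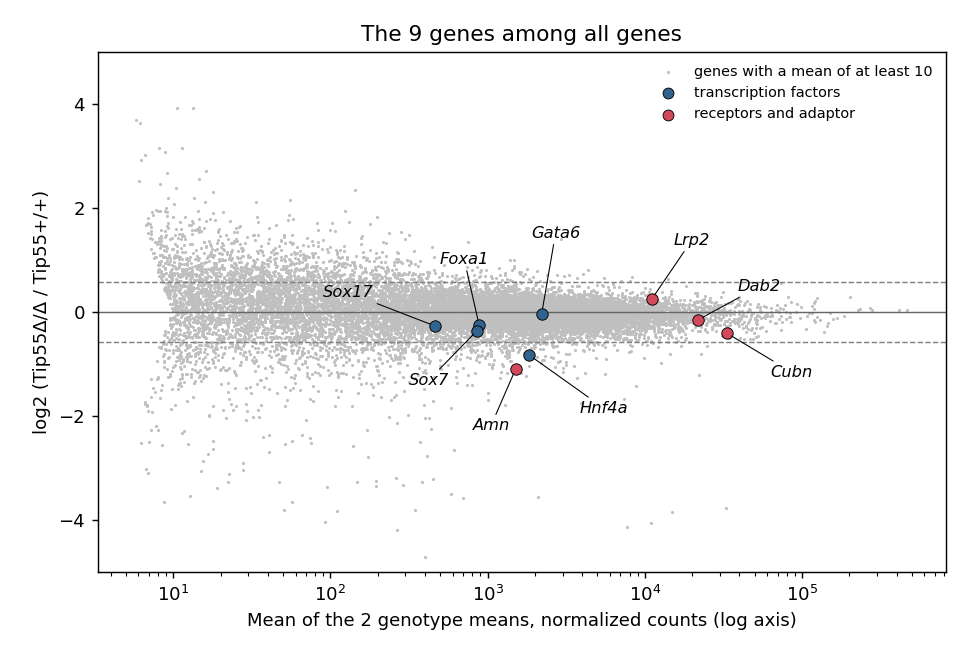
Log2 ratio of Tip55Δ/Δ over Tip55+/+ against the mean of the 2 genotype means in normalized counts (log axis) for genes with a mean of at least 10 in either genotype. Grey points are genes, blue points the transcription factors and red points the uptake genes, and dashed lines mark 1.5-fold. *Amn* and *Hnf4a* lie below the lower line where 2.86% of genes that reach a mean of 500 lie, and 2 genes beyond a log2 ratio of 5 and 2 genes with a mean of 0 in a genotype are not drawn.

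Levels between genes were compared per kb of the longest annotated transcript. In wildtype embryos the order ran from *Dab2* with 4931 normalized counts per kb through *Cubn* (3382), *Amn* (1209), *Lrp2* (655.2), *Gata6* (590.3), *Hnf4a* (537.8), *Foxa1* (302.0) and *Sox7* (291.8) to *Sox17* (155.7). *Foxa1* and *Sox7* differed by 1.04-fold (interval 0.983 to 1.09), within counting error, and the other neighbours differed by more than it. In knockout embryos *Amn* (567.5 per kb) came below *Lrp2* (777.5) and beside *Gata6* (577.0), which differed from it by 1.02-fold (interval 0.973 to 1.06). *Hnf4a* kept its place above *Foxa1*, but the gap went from 1.78-fold to 1.20-fold, at 303.4 against 252.5 per kb. *Dab2*, *Cubn*, *Sox7* and *Sox17* had 4445, 2547, 227.7 and 129.3 per kb in knockout embryos. The 4 uptake genes took 0.149% of all recovered counts in wildtype and 0.132% in knockout embryos, and the 5 factors 0.0143% and 0.0116%. The order depends on which transcript is taken as the length, since *Dab2* has 14 annotated transcripts and *Sox17* 8. With coding length *Hnf4a*, at 1650 per kb in wildtype embryos, came above *Amn* (1496), while *Dab2* at 10010 and *Cubn* at 3505 were first and second. With the shortest protein-coding transcript *Dab2* was first at 62480, and *Cubn* at 3382 came below *Hnf4a* (5443), *Gata6* (5219) and *Lrp2* (4547). How far libraries differ in these levels is not known.

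**Figure D3:**
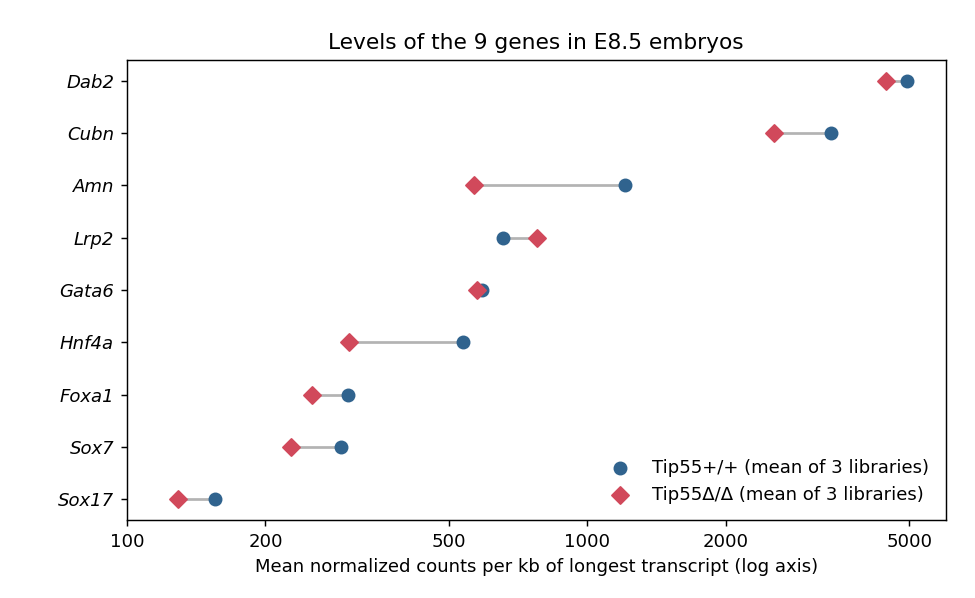
Mean normalized counts per kb of the longest transcript (log axis) for the 9 genes, with circles for Tip55+/+ and diamonds for Tip55Δ/Δ, each the mean of 3 libraries and drawn without error bars because no value per library was held. The widest gaps between circle and diamond are those of *Amn* (1209 to 567.5) and *Hnf4a* (537.8 to 303.4), and *Lrp2* is the only gene whose diamond lies to the right.

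Base composition went with the ratios across the table. The trend, a smooth curve of log2 ratio on the GC content of the longest transcript over the 12487 genes that reached a mean of 100, stood at −0.34 on the log2 scale at the GC content of *Amn* and between −0.12 and 0.04 at those of the other 8 genes. Removing it brought *Amn* to a ratio of 0.595, next to *Hnf4a* at 0.599, and their ratio to each other then changed by 0.993-fold between genotypes in place of 0.832-fold. *Foxa1*, *Sox17* and *Sox7* came to 0.894, 0.873 and 0.802, *Cubn* to 0.738 and *Dab2* to 0.878. The libraries were not strand-specific, and exons of 4 genes overlap those of others. *Sox17* shares 804 bases, 16.8% of its exon bases, with *Gm37587*, and *Gata6*, *Cubn* and *Dab2* share 1.43%, 2.46% and 2.87% with other genes. What these overlaps add to the counts was not tested.

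The genes were next set beside the secreted and absorptive products of the visceral endoderm. Of 11 further markers of this tissue, all had a lower mean in knockout embryos, 9 of them by at least 1.5-fold, with a median ratio of 0.530. By that fold 5.75% of the 15924 genes were lower, and 2.86% of genes with a mean of at least 500. The 11 markers were chosen with earlier results of these data known. Among them were *Afp*, alpha-fetoprotein, at 30639 normalized counts in wildtype and 13317 in knockout embryos (ratio 0.435, interval 0.430 to 0.440), and *Apoa4*, an apolipoprotein, at 7778 and 3406 (ratio 0.438, interval 0.428 to 0.448). *Apob*, the structural protein of secreted lipoproteins, had 57848 and 40111 (ratio 0.693, interval 0.688 to 0.699). The ratio of *Amn* was above those of 2 of these 11 markers and that of *Hnf4a* above those of 8, so both lay within the range of the markers, 0.435 to 0.711. *Cubn*, itself used as a marker of this tissue, had a higher ratio than all 11, and so did *Dab2*, *Lrp2* and the other 4 factors. With the GC trend removed *Amn* and *Hnf4a* were each above 7 of the 11 and *Cubn* above 10. The summed means of the 11 markers were 149323 in wildtype and 86111 in knockout embryos. The part of the amount of visceral endoderm in the ratios of the 9 genes was not tested.

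Of 9 genes for proteins that cubilin or megalin bind, 4 had an RNA mean at least 1.5-fold lower and none a higher one by that fold, with a median ratio of 0.693. *Trf*, the iron carrier transferrin, had 4773 and 2323 normalized counts (ratio 0.487, interval 0.473 to 0.501), *Apoa1* had 16882 and 8573 (ratio 0.508, interval 0.5002 to 0.516), and *Apoe* had 19834 and 14256 (ratio 0.719, interval 0.710 to 0.728). A total of 5 genes of this list are also visceral endoderm markers, all 4 genes past the fold among them, so the lists are not separate evidence. None of the other 4 was past 1.5-fold. They are *Apoe* and, named after their values were seen, *Tcn2* at 0.923 (interval 0.893 to 0.955), *Gc* at 0.945 (interval 0.670 to 1.33) and *Clu* at 1.365 (interval 1.31 to 1.42). The remaining gene of the list, *Alb*, had a mean under 10 in both genotypes. The general uptake machinery was nearer to 1, with a median ratio of 0.935 over the 19 genes reported here, none lower and 1 higher by 1.5-fold. *Vldlr*, a receptor for very low density lipoprotein and reelin, had 658.9 and 1119 (ratio 1.70, interval 1.61 to 1.80), and *Lrp1*, a large endocytic receptor related to megalin, had 14281 and 11353 (ratio 0.795, interval 0.784 to 0.806). The clathrin heavy chain gene *Cltc* had 30082 and 28120 (ratio 0.935, interval 0.926 to 0.944) and the AP-2 adaptor subunit gene *Ap2m1* 16149 and 15744 (ratio 0.975, interval 0.963 to 0.987).

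Of the 10 further endoderm transcription factors reported here, 5 had a lower and 5 a higher mean in knockout embryos, with 1 higher and none lower by 1.5-fold and a median ratio of 1.01. The higher one was *Eomes*, a T-box factor of the primitive streak and early endoderm, with 26.9 and 48.9 normalized counts (ratio 1.82, interval 1.37 to 2.41). *Otx2*, a homeodomain factor of the anterior visceral endoderm and the forebrain, had 2211 and 3092 (ratio 1.40, interval 1.36 to 1.44). *Gata4*, which acts beside *Gata6*, had 3188 and 3329 (ratio 1.04, interval 1.02 to 1.07), and *Nr2f2*, a nuclear receptor gene of mesenchyme and many other tissues, had 4404 and 3193 (ratio 0.725, interval 0.706 to 0.744). Of the relatives of the factors in this list, 3 are named after their values were seen. They were *Foxa3* (0.831, interval 0.725 to 0.952), *Foxa2* (0.905, interval 0.851 to 0.962) and *Gata5* (1.10, interval 1.05 to 1.16).

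Genes of gut endoderm, endothelium and heart, other tissues that express some of the 9 genes, were measured in the same libraries. No list was made for the neural epithelium, where *Lrp2* is also used. Of 10 gut endoderm genes, 2 were higher and none lower by 1.5-fold, with a median ratio of 1.12 and 6 ratios over 1 against 4 under it. *Pyy* and *Trh*, hormone genes of the early gut tube, had ratios of 2.28 (interval 2.004 to 2.61) and 1.83 (interval 1.72 to 1.95). The epithelial keratins *Krt8* and *Krt18* had ratios of 1.18 (interval 1.16 to 1.19) and 1.19 (interval 1.17 to 1.21). The 4 genes under 1, named after their values were seen, were *Nkx2-1* at 0.692 (interval 0.548 to 0.864), *Epcam* at 0.854 (interval 0.828 to 0.882), *Cldn6* at 0.869 (interval 0.854 to 0.885) and *Cdh1* at 0.953 (interval 0.934 to 0.973). The summed means of the list were 51366 in wildtype and 56021 in knockout embryos. Of 10 endothelial genes, 3 were lower and none higher, with a median ratio of 0.823 and summed means of 22742 and 20639. *Sox18*, the endothelial relative of *Sox17* and *Sox7*, had a ratio of 0.601 (interval 0.573 to 0.631) and the junction gene *Cldn5* one of 0.608 (interval 0.565 to 0.654), while *Kdr* and *Cdh5*, a growth factor receptor and a cadherin, had 1.11 (interval 1.09 to 1.14) and 0.794 (interval 0.777 to 0.812). With the GC trend removed none of the 10 was past 1.5-fold. Among 9 heart genes 6 had a ratio over 1 and 3 one under it. By 1.5-fold 2 were higher and none lower, the troponin gene *Tnnt2* at 1.57 (interval 1.53 to 1.61) and the myosin gene *Myh7* at 1.56 (interval 1.54 to 1.58), with *Actc1*, cardiac actin, at 1.28 (interval 1.27 to 1.30) and summed means of 56330 and 69475. The 3 under 1, named after their values were seen, were *Nkx2-5* at 0.695 (interval 0.655 to 0.736), *Myh6* at 0.963 (interval 0.947 to 0.979) and *Hand2* at 0.982 (interval 0.954 to 1.01). With the GC trend removed these 3 came to 0.971, 1.06 and 1.15, so the low ratio of *Nkx2-5* was not kept under this correction. What causes the GC trend was not tested.

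Markers of 4 tissues found beside the visceral endoderm were also counted. None of 9 parietal endoderm genes was past 1.5-fold, with a median ratio of 0.892 and summed means of 79028 and 71015. The collagen IV genes *Col4a1* and *Col4a2* had ratios of 0.783 (interval 0.774 to 0.791) and 0.855 (interval 0.843 to 0.866), and *Srgn* had few counts, 38.03 and 30.02 normalized counts (interval of the ratio 0.592 to 1.05). With the GC trend removed *Col4a1* and *Col4a2* came to 0.884 and 1.03. The median log2 ratio of the parietal list then went from −0.16 to 0.04, so its lower median was not kept. Of 6 trophoblast genes 2 were lower and 1 higher, with summed means of 6821 and 6865, most of it from *Hand1* (6142 and 6156). The higher one, named after its values were seen, was *Ascl2* at 22.1 and 39.01 normalized counts (ratio 1.76, interval 1.3 to 2.435). The lower ones were the placental hormone genes *Prl2c2* (30.5 and 5.50 normalized counts) and *Prl3d1* (26.9 and 6.69), while *Hand1*, also a heart gene, and *Plac1* had ratios of 1.002 (interval 0.982 to 1.02) and 1.11 (interval 1.04 to 1.19). Of 4 decidual genes with a mean of at least 10, 1 was lower, *Prl8a2*, a maternal prolactin gene at 503.2 and 27.6 (ratio 0.0548, interval 0.0435 to 0.0686). The other 3, *Des*, *Cryab* and *Dcn*, had ratios from 0.945 to 1.09, and the summed means of the 4 genes were 3747 and 3239. Most of both sums came from *Des* (1727 and 1632.5) and *Cryab* (1326 and 1371), so the sums do not follow *Prl8a2*. How much of the RNA of these genes came from decidua was not measured. The remaining gene of the list, *Prl3c1*, had a mean under 10 in both genotypes (2.01 and 0.409). All 8 primitive erythroid genes, whose cells arise in the yolk sac beside the visceral endoderm, were lower, with a median ratio of 0.0843 and summed means of 109805 and 7797. The embryonic globin genes *Hbb-y*, *Hbb-bh1* and *Hba-x* had ratios of 0.0571 (interval 0.0548 to 0.0594), 0.0691 (interval 0.0673 to 0.0710) and 0.0733 (interval 0.0720 to 0.0746). No gene of these lists was at 0 in either genotype. The part of any of these tissues in the ratios of the 9 genes was not tested.

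**Figure D4:**
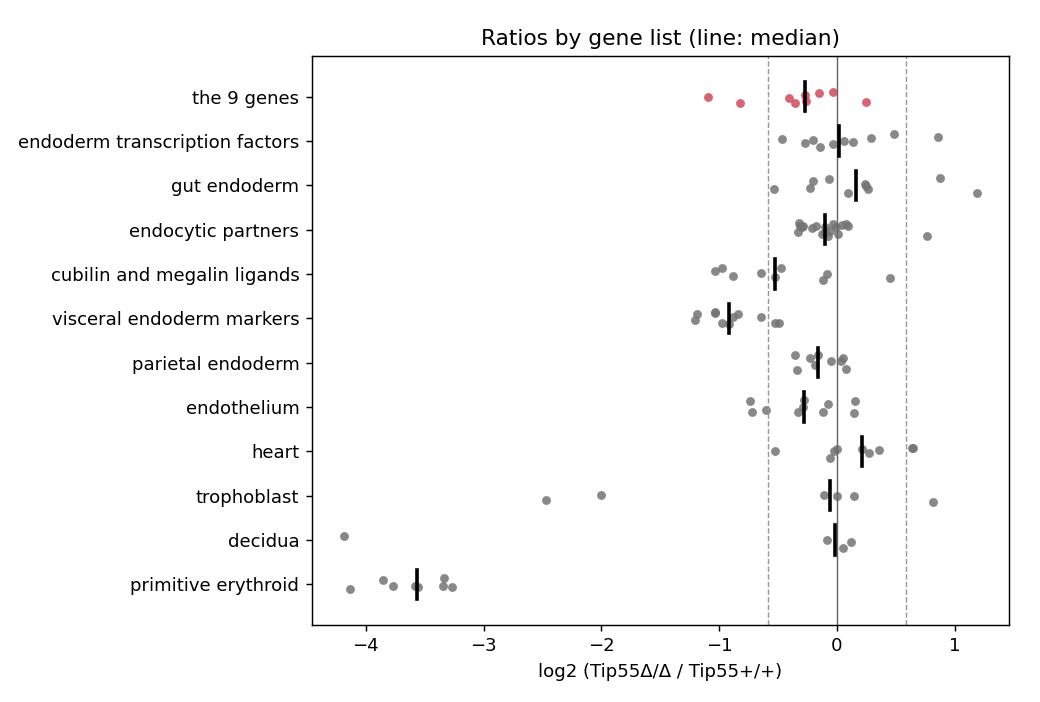
Log2 ratio of Tip55Δ/Δ over Tip55+/+ for the 9 genes (red) and for 11 lists of other genes with a mean of at least 10 in either genotype (grey), 1 point per gene, with a vertical line at each median and dashed lines at 1.5-fold. The 9 genes are left out of the other lists, and 5 genes are in both the ligand and the marker list. The visceral endoderm markers have a median log2 ratio of −0.92 and the endoderm transcription factors one of 0.01, and the median of the 9 genes, −0.27, lies between.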

How the data were processed

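RNA from E8.5 embryos was enriched for mRNA and made into libraries that do not keep strand, 3 per genotype, and sequenced at BGI. The authors aligned reads to mm10, took gene counts from RSEM and set the genotypes against each other in EBSeq; versions are not given in the sources used here. The deposited table holds 4 columns per gene, all from that comparison: 2 posterior probabilities, which were not used, and 2 linear ratio columns of knockout over wildtype. The authors' ratio values served only as input to recover the 2 genotype means, because they add different constants to the same means: 0.01 in one and 0.514 in the other, the latter estimated from 296 genes at 0 in the knockout and 259 at 0 in the wildtype mean. The ratio of recovered means is therefore, within rounding, fixed by the deposited ratio and is no independent estimate of it. The file does not state the direction, which was taken from the series description and from 2 erythroid genes (*Gata1* and *Klf1*) that the study describes as lower in the mutant. Rounding error of a mean was at most 0.046% for the 9 genes, and 8 genes over 5% were left out of the summed totals of each genotype.

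Intervals are exact binomial (Clopper-Pearson, scipy 1.17.1) on counts summed over 3 libraries; for a ratio between 2 genes across genotypes they are normal approximations on the log scale. They cover counting error only, and the depth of single libraries is unknown. Base composition was corrected by a lowess fit (statsmodels 0.14.6, span 0.3). Gene coordinates, lengths and GC content are from GENCODE vM21 on GRCm38. Recovery and intervals were tested on simulated counts with counting error alone, and trend removal on a simulated straight trend. These simulations hold no differences between embryos. The 9 genes and all lists were chosen with earlier results of these data known. Some genes of the lists are not reported here and were left out of the counts. In each list the 2 genes with the largest absolute log2 ratio and the 2 with the highest wildtype mean were named. Alternatives changed the scale, GC correction, recovery constant, pseudocount, fold, minimum mean and transcript length.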

Additional observations from a re-analysis of the deposited data

How the results depend on the processing

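No paired analysis was possible because the table holds no value per library, and for the same reason no library could be left out in turn. The count of 2 genes at least 1.5-fold lower became 4 at a fold of 5/4 and 1 at 2-fold, and stayed at 2 when ratios were centred on all genes, taken as shares of the totals or corrected for GC content. The share of all genes 1.5-fold lower was 10.9% with no minimum mean and 2.86% with a minimum of 500, a setting chosen after seeing the data. The share 1.5-fold higher was 12.2%, 2.90% and 14.3% with a minimum mean of 1, of 100 and with none. No ratio that was past 1.5-fold changed direction under any of these settings, and among the 9 genes only *Gata6* crossed 1. Removing the GC trend moved the ratios of 6 of the 9 genes, and shares of totals those of 5, by more than counting error. The median log2 ratio of the 9 genes ran from −0.31 to −0.26 when each was left out in turn and was −0.20 with the GC trend removed. Levels per kb changed with the transcript taken as length for some genes, most for *Dab2* in wildtype, at 4931 by its longest and 62480 by its shortest coding transcript, while those of *Foxa1*, *Sox7*, *Cubn* and *Amn* were the same by both. Differences between embryos cannot be judged at any depth from these values.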
